A study of Homo sapiens with 6 samples.

Results

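The miR-17-92 cluster is a group of 6 microRNA (miR) hairpins that lie close together in one primary transcript, MIR17HG, on human chromosome 13. Its members were taken by locus, as the 10 named mature products of this transcript from either arm, out of 2588 miR names listed in the count table and 360 tested. The 2 remaining arms, which were almost absent, are described apart. They are hsa-miR-17-5p, hsa-miR-17-3p, hsa-miR-18a-5p, hsa-miR-18a-3p, hsa-miR-19a-3p, hsa-miR-20a-5p, hsa-miR-20a-3p, hsa-miR-19b-3p, hsa-miR-92a-1-5p and hsa-miR-92a-3p, and all 10 passed the filter on low counts. Small RNA was sequenced from HEK293T, a human embryonic kidney cell line, in 3 libraries after knock-down (KD) of the ribosomal protein RPL24 and 3 negative control (NC) libraries. RPL24 KD cells received siPOOLs against RPL24, in which different siRNAs to one mRNA are combined, and NC cells received a non-targeting pool, both at 50 nM with harvest after 72 h. In both groups the labels further mention plasmids for miR-608, transfected 48 h after the pools and 24 h before harvest, but the study's text treats the sequencing as an experiment of its own in cells lacking miR-608, which goes against a plasmid in the sequenced cells. The question put to these libraries was how depletion of RPL24 alters the levels of miRs at large, and it is asked here of the 10 products of one primary transcript.

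A miR is cut from its primary transcript in steps. In the nucleus the Microprocessor, made of DROSHA and DGCR8, releases the hairpin, and in the cytoplasm DICER removes the loop and leaves a duplex of a 5p and a 3p arm. One arm is usually loaded into an Argonaute protein and the other is degraded, so the arms of one hairpin share their transcription and their Microprocessor cut but not their stability. The miR-17-92 cluster, also called oncomiR-1, is transcribed under MYC and is amplified in some lymphomas. Its main products recognise targets through the seed, bases 2 to 8. MiR-17-5p and miR-20a-5p are known to repress the cell cycle genes E2F1 and CDKN1A, and miR-18a-5p the matrix proteins THBS1 and CCN2.

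The mature sequences of the 10 members are shown because the seed decides which members may share targets, and because members that differ by 1 base are hard to tell apart in counts. They are RefSeq sequences, written 5′ to 3′ with the seed in capitals.
hsa-miR-17-5p: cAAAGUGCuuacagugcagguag
hsa-miR-20a-5p: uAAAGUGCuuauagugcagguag
hsa-miR-18a-5p: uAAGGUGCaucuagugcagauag
hsa-miR-19a-3p: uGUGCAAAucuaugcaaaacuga
hsa-miR-19b-3p: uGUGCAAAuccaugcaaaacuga
hsa-miR-92a-3p: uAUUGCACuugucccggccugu
hsa-miR-17-3p: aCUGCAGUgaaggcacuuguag
hsa-miR-20a-3p: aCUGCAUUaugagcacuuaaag
hsa-miR-18a-3p: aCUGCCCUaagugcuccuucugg
hsa-miR-92a-1-5p: aGGUUGGGaucgguugcaaugcu

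The main arms fall into 4 seed groups. MiR-17-5p and miR-20a-5p share AAAGUGC and differ by C1U and C12U, counted from the 5′ end with the base of miR-17-5p first. MiR-19a-3p and miR-19b-3p share GUGCAAA and differ by U11C alone. MiR-18a-5p has its own seed, AAGGUGC, and miR-92a-3p has AUUGCAC. Other genomic copies come close to several members. MiR-17-5p differs from miR-106a-5p by C1A, and miR-18a-5p from miR-18b-5p by A20U. MiR-19b-3p and miR-92a-3p are each encoded at 2 loci, once in the cluster and once in the paralogous MIR106A-363 cluster on chromosome X, so that reads of these mature miRs cannot be assigned to one locus. The 2 arms that are specific to the X copies, miR-19b-2-5p and miR-92a-2-5p, had 0 counts in all 6 libraries. The sources used here do not say how a read that matches more than one miR was assigned.

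The 6 hairpins lie on the plus strand at chr13:91350605-91351391 of GRCh38.p14, within a span of 787 nt, in the order MIR17, MIR18A, MIR19A, MIR20A, MIR19B1 and MIR92A1. The gaps between neighbours are from 35 to 92 nt. In GENCODE 29 the host gene MIR17HG spans chr13:91347820-91354579 and has 3 transcripts, and each hairpin lies in an exon of 2 of them and in intron 3 of the other. The hairpins MIR18A, at chr13:91350751-91350821, and MIR92A1, at chr13:91351314-91351391, are shown because, of the cluster's hairpins, these had the lowest p-values for the balance of their arms, with the arms in capitals and the loop between them.
MIR18A: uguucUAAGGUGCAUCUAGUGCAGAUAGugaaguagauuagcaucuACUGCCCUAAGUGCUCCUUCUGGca
MIR92A1: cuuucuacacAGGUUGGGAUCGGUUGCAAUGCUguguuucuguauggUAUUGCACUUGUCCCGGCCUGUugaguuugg

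The letters UGUG, searched on the transcribed strand strictly within the loop between the annotated arms, occur in MIR17 and MIR19B1 and not in the other 4 hairpins. In MIR92A1, UGUG starts on the last base of the arm before the loop and runs into the loop, a position that this search did not cover. Over all 739 RefSeq hairpins with both arms listed, 12.9% hold UGUG in the loop. Among hairpins whose loop is 14 nt long, as in MIR17, the share is 15.1%, and at 15 nt, as in MIR19B1, it is 9.68%.

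The libraries held from 398721 to 611745 counts, and a floor of 3 counts stood for 4.90 to 7.52 CPM depending on the library. PCR copies of one molecule are counted as separate reads, so intervals and floors reflect counting error alone. Libraries 1 and 2 of each group carry the number of their label in the count table. The remaining column of each group is numbered 4 in the table, whereas the labels number the remaining sample 3, so these columns were matched to their group but not to a label's number and are called unnumbered. No source says that the 3 libraries of a group came from separate cultures, so p-values measure the spread between these libraries, which may be technical. NC libraries differed from each other more than RPL24 KD libraries did, with a chi-square per degree of freedom of 12.0 to 21.5 between pairs of NC libraries and of 2.50 to 2.84 between pairs of RPL24 KD libraries. The mRNA of RPL24 is not measured in small RNA libraries, so its depletion was not checked here. Of 15 miRs typical of cells other than HEK293T, 5 had 0 counts in all 6 libraries, among them the leukocyte miR-223-3p and the stem cell miR-302a-3p. The most abundant was the muscle miR-1-3p, with 104 to 160 counts in the RPL24 KD libraries and 139 to 203 in the NC libraries. The other muscle miRs of the list were low, with 2 to 7 counts for miR-133a-3p and 0 in all 6 libraries for miR-206. The summed level of the 15 lay between 338 and 366 CPM in RPL24 KD and between 437 and 582 CPM in NC, without overlap, and its part in the results below was not tested.

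The cluster supplied a large part of all miR reads in both groups. The 10 members took 17.1%, 17.3% and 16.6% of the counts in the RPL24 KD libraries 1, 2 and unnumbered, and 16.7%, 15.2% and 18.05% in the NC libraries in the same order. Each of these shares has a 95% Wilson interval no wider than 0.229 percentage points. In these raw shares the RPL24 KD libraries lay within the range of the NC libraries, and the total differed by less than the spread between the control libraries. In TMM-normalised CPM the members summed to 174354, 175968 and 168950 in RPL24 KD and to 164897, 151533 and 175603 in NC, in the same order. On that scale RPL24 KD library 2 lay just above the NC range, and the groups still overlapped.

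A single arm made up most of it. MiR-92a-3p supplied 67.5% to 69.6% of the cluster's reads in RPL24 KD and 61.3% to 68.6% in NC, and was number 2 in abundance among all tested miRs. MiR-20a-5p was number 5 and miR-17-5p number 14. Per nucleotide of mature sequence, the mean level over the 6 libraries was 5134 CPM per nt for miR-92a-3p, 1358 for miR-20a-5p and 849 for miR-17-5p. It was 87.8 CPM per nt for miR-19a-3p, 56.4 for miR-18a-5p and 35.2 for miR-19b-3p. The remaining arms followed with 16.5 CPM per nt for miR-18a-3p, 8.39 for miR-92a-1-5p, 5.06 for miR-17-3p and 1.22 for miR-20a-3p. The ranges of neighbours in this order did not overlap across the 6 libraries, with the exception of miR-92a-1-5p and miR-17-3p. Products of one primary transcript therefore spanned a wide range of read levels, although the ligation of adapters favours some RNA ends over others and the levels of different miRs in such libraries are not calibrated against each other. The 2 other products of these hairpins were almost absent: miR-19a-5p had 1 count in each of 2 libraries and 0 in the other 4, and miR-19b-1-5p had from 5 to 10 counts, and neither was tested.

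**Figure D1:**
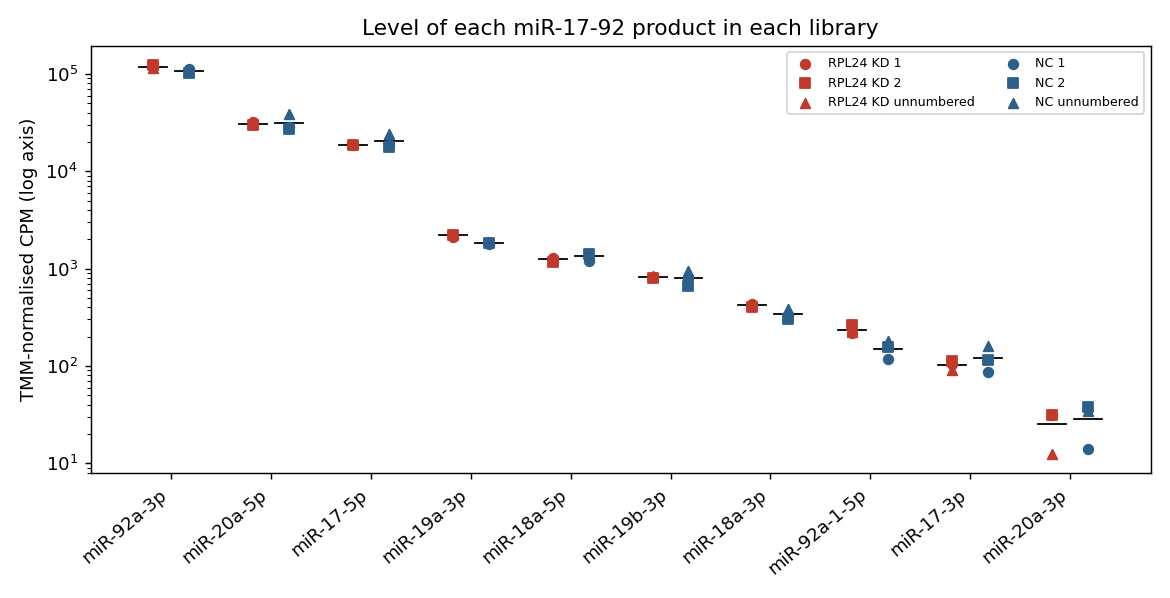
Level of each of the 10 members in each library, in TMM-normalised CPM on a log axis, with RPL24 KD in red and NC in blue, point shapes for the libraries and short lines for the mean of each group (n = 3). The members run from miR-92a-3p, at 102017 CPM or more in every library, to miR-20a-3p, with no more than 37.5 CPM in any.

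Levels after RPL24 KD were set against NC with edgeR's quasi-likelihood test on the 360 miRs, with p-values adjusted over all of them after Benjamini and Hochberg, and differential expression (DE) was called where the adjusted p was under 0.05. Of the 360 miRs, 18 (5%) were DE, 12 of them (3.33%) higher after RPL24 KD, and without RPL24 KD library 1 this number was 0, with 56 miRs at an unadjusted p under 0.05 in edgeR, and without the unnumbered NC library 36. Among the 10 members 2 were DE, miR-92a-1-5p and miR-19a-3p, both higher after RPL24 KD, and 8 did not pass the test. In TMM-normalised CPM the groups did not overlap in 4 members (miR-92a-1-5p, miR-19a-3p, miR-18a-3p and miR-92a-3p), where they did not overlap in 27.5% of all tested miRs. The median log2 fold change was -0.0038 over the members, of which 5 were positive, and -0.0084 over all tested miRs, of which 47.2% were positive. The members did not move in one direction together, and with 10 members these counts are too small to set the cluster apart from the background. Leaving out 1 library moved the number of DE members between 0 and 3: it was 0 without RPL24 KD library 1, without RPL24 KD library 2 and without NC library 1, and 1 without the unnumbered RPL24 KD library or NC library 2. Without the unnumbered NC library it was 3.

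**Figure D2:**
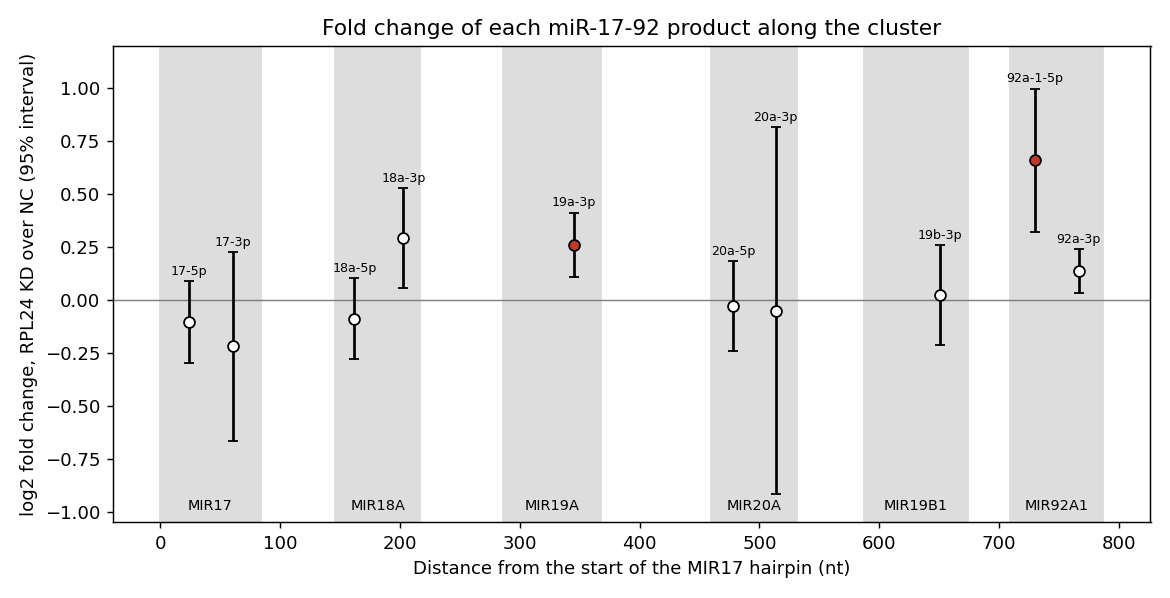
Log2 fold change of each member, RPL24 KD over NC, from edgeR with its 95% interval, against the distance of the mature miR from the start of the MIR17 hairpin in nt, with hairpins as grey bands and the DE members filled in red. MiR-19a-3p and miR-92a-1-5p are DE, and the intervals of miR-18a-3p and miR-92a-3p also lie above 0 although neither is DE.

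The largest fold change in the cluster was that of hsa-miR-92a-1-5p, the minor arm of the last hairpin, at chr13:91351324-91351346. Its level was 219, 261 and 226 CPM in the RPL24 KD libraries 1, 2 and unnumbered and 117, 155 and 180 CPM in the NC libraries in the same order. Every RPL24 KD library lay above every NC library. The counts behind these levels were 120, 157 and 90 in RPL24 KD and 67, 62 and 95 in NC. The mean was 235 ± 22.6 CPM after RPL24 KD and 151 ± 31.7 CPM in NC (SD, n = 3 each), a 1.58-fold higher level. The log2 fold change was 0.66 (standard error 0.158, 95% interval 0.32 to 1.0, edgeR adjusted p = 0.0289), number 12 by p among the tested miRs. The call was lost without RPL24 KD library 1 (log2 fold change 0.71, edgeR adjusted p = 0.0782), without RPL24 KD library 2 (0.57, adjusted p = 0.127) and without NC library 1 (0.48, adjusted p = 0.0859).

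The major arm of the same hairpin, hsa-miR-92a-3p, moved less. It stood at 118358, 122431 and 114090 CPM in RPL24 KD and at 113123, 102017 and 107638 CPM in NC. In TMM-normalised CPM the groups were adjacent without overlapping, the lowest RPL24 KD library lying just above the highest NC library. In raw shares of all counts the groups overlapped. There miR-92a-3p held 11.6%, 12.0% and 11.2% in RPL24 KD and 11.4%, 10.2% and 11.1% in NC. Its log2 fold change was 0.14 (standard error 0.0474, 95% interval 0.035 to 0.24, edgeR adjusted p = 0.111), which did not pass the test. Because miR-92a-3p is also encoded on chromosome X, this value cannot be assigned to the chromosome 13 hairpin alone.

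The second DE member was hsa-miR-19a-3p, at chr13:91350939-91350961. Its level was 2103, 2226 and 2275 CPM in the RPL24 KD libraries and 1802, 1837 and 1869 CPM in the NC libraries. The groups did not overlap, and the NC libraries lay closer together here than for any other member relative to the mean. The mean was 2201 ± 88.6 CPM after RPL24 KD and 1836 ± 33.8 CPM in NC (SD, n = 3 each), with a log2 fold change of 0.26 (standard error 0.0707, 95% interval 0.11 to 0.41, edgeR adjusted p = 0.0486). This adjusted p lies just inside the threshold and the miR was number 18 of the 18 DE miRs by p. Leaving out a library kept the log2 fold change between 0.23 and 0.29, but the call held in 1 of these 6 fits, that without the unnumbered NC library (edgeR adjusted p = 0.0200), and the other fits gave adjusted p-values from 0.0658 to 0.174.

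Its seed partner hsa-miR-19b-3p, which differs by U11C, had 819, 804 and 837 CPM in RPL24 KD and 808, 660 and 935 CPM in NC. The RPL24 KD libraries lay inside the range of NC. The log2 fold change was 0.023 (standard error 0.110, 95% interval -0.21 to 0.26, edgeR adjusted p = 0.928), and it was -0.027 with total counts in place of TMM. Counting both miR-19 members as one feature, which does not depend on how reads were divided between them, gave a log2 fold change of 0.19 (edgeR adjusted p = 0.127), not DE. The ratio of miR-19a-3p to miR-19b-3p was 2.69 ± 0.106 after RPL24 KD and 2.34 ± 0.403 in NC (SD, n = 3 each), with overlapping groups (exact two-sided permutation p = 0.4). Since 3 libraries against 3 allow no p below 0.1, this test could not pass at 0.05, and it does not tell whether the miR-19 members responded alike or differently.

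The members with the seed AAAGUGC, which act on cell cycle genes, did not pass the test. MiR-17-5p had 18817, 18577 and 19081 CPM in RPL24 KD and 18786, 17681 and 24232 CPM in NC. The unnumbered NC library stood above the other 5, which lay close together. The log2 fold change was -0.10 (standard error 0.0903, 95% interval -0.30 to 0.089, edgeR adjusted p = 0.552), and it was 0.032 without the unnumbered NC library. MiR-20a-5p had 32180, 29941 and 30615 CPM in RPL24 KD and 28638, 27303 and 38769 CPM in NC, again with the unnumbered NC library above the rest. Its log2 fold change was -0.031 (standard error 0.0990, 95% interval -0.24 to 0.18, edgeR adjusted p = 0.90), and 0.13 without that library (edgeR adjusted p = 0.103).

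For miR-18a-5p the mean was 1257 ± 66.5 CPM after RPL24 KD and 1338 ± 129 CPM in NC (SD, n = 3 each), with a log2 fold change of -0.089 (standard error 0.0889, edgeR adjusted p = 0.618). Its partner arm miR-18a-3p pointed the other way, with 428, 404 and 428 CPM in RPL24 KD and 332, 305 and 385 CPM in NC. All RPL24 KD libraries lay above all NC libraries. The log2 fold change of miR-18a-3p was 0.29 (standard error 0.110, 95% interval 0.055 to 0.53), and it did not pass the test after adjustment (edgeR adjusted p = 0.131). Without the unnumbered NC library it was 0.37 and called (edgeR adjusted p = 0.0480). The minor arms miR-17-3p and miR-20a-3p were the least abundant members. MiR-17-3p ranged from 90.2 to 112 CPM after RPL24 KD and from 87.5 to 159 CPM in NC, with a log2 fold change of -0.22 (95% interval -0.67 to 0.23). MiR-20a-3p had 17, 19 and 5 counts in RPL24 KD and 8, 15 and 18 in NC. The 95% interval of its log2 fold change, from -0.92 to 0.82, does not exclude changes of either direction within these limits.

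The balance of the arms within a hairpin does not depend on the scaling of the libraries, and it was compared by limma on the log2 ratio of 5p to 3p over the 84 hairpins with both arms tested. Of the 84, 1 (1.19%) differed at an adjusted p under 0.05, the hairpin of miR-25 in the paralogous MIR106B-25 cluster, which did not pass without RPL24 KD library 1 (limma adjusted p = 0.0554). None of the 4 hairpins of the miR-17-92 cluster with both arms tested passed. An unadjusted p under 0.05 in limma was found for 2 of them, miR-92a-1 and miR-18a, and for 5 of the 84 hairpins (5.95%), and in these 2 and in 8 of the 84 (9.52%) the groups did not overlap. In miR-92a-1 the 5p arm made up 0.185%, 0.213% and 0.197% of the reads of both arms in the RPL24 KD libraries and 0.103%, 0.152% and 0.167% in the NC libraries. The groups did not overlap, while the 95% Wilson interval of the lowest RPL24 KD library, 0.155% to 0.221%, overlapped that of the highest NC library, 0.137% to 0.204%. The log2 ratio of 5p to 3p was higher by 0.52 after RPL24 KD (standard error 0.152, limma adjusted p = 0.303), number 2 by p among the 84 hairpins. It was higher by 0.31 without NC library 1 and by 0.66 without the unnumbered NC library. The 3p reads of this ratio cannot be told apart from any of the X copy.

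In miR-18a the 3p arm made up 24.8%, 25.5% and 24.9% of the reads of both arms in RPL24 KD and 21.8%, 17.7% and 21.5% in NC. The difference in log2(5p/3p) was -0.39 (standard error 0.171, limma adjusted p = 0.724), and the groups did not overlap. The minor arm thus had a higher share after RPL24 KD in both hairpins shown above, being 5p in miR-92a-1 and 3p in miR-18a, and neither difference passed the test. These hairpins were shown for their p-values, so their agreement carries no weight of its own. The log2(5p/3p) of miR-17 and miR-20a differed by 0.11 (limma adjusted p = 0.879) and 0.15 (limma adjusted p = 0.923), with overlapping groups. Their minor 3p arms thus pointed to a lower share after RPL24 KD.

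**Figure D3:**
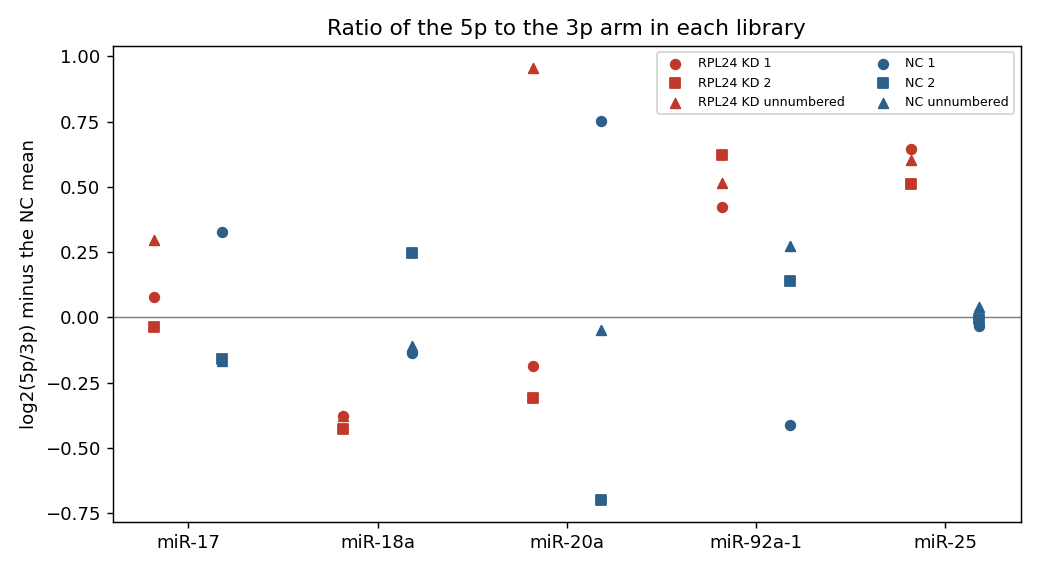
Log2 ratio of the 5p to the 3p arm in each library, minus the mean of the 3 NC libraries, for the 4 hairpins of the cluster with both arms tested and for miR-25, with RPL24 KD in red, NC in blue and point shapes for the libraries. The groups are separate in miR-18a, miR-92a-1 and miR-25, and of these only miR-25 passed the test over 84 hairpins, of which 8 have separate groups.

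The composition of the cluster's reads was compared as the share of each member, by exact two-sided permutation tests on 10 shares, in which no p can fall below 0.1. This smallest p was reached by 3 members. MiR-17-5p made up 10.9% ± 0.377 of the cluster's reads after RPL24 KD and 12.3% ± 1.32 in NC, miR-18a-3p 0.243% ± 0.0121 and 0.207% ± 0.0103, and miR-92a-1-5p 0.136% ± 0.0115 and 0.0920% ± 0.0181 (SD, n = 3 each, exact permutation p = 0.1). For miR-17-5p the difference in log2 share was -0.17, and -0.084 without the unnumbered NC library, the one with the highest share. The design cannot bring these to an adjusted p under 0.05. For the other 7 members the exact permutation p lay between 0.2 and 0.9, with 68.3% ± 1.09 after RPL24 KD and 65.7% ± 3.90 in NC for miR-92a-3p. The ratio of miR-17-5p to miR-20a-5p, which share a seed, was 0.610 ± 0.0215 after RPL24 KD and 0.643 ± 0.0160 in NC (SD, n = 3 each, exact permutation p = 0.1).

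Paralogous miRs gave a second view of the same seeds. Of 23 miRs listed from the 2 paralogous clusters, from other loci with the same seeds and from the other products of the cluster, 10 were tested and 1 was DE. Their median log2 fold change was 0.051, with 6 of 10 positive. Over all 360 tested miRs 5% were DE and 47.2% were positive, so these counts are too small to set the list apart. The DE miR was hsa-miR-25-5p, the minor arm of the miR-25 hairpin on chromosome 7. It had 400.5, 354 and 371 CPM in RPL24 KD and 231, 232 and 260 CPM in NC, and the groups were far apart relative to their spread. The log2 fold change was 0.64 (standard error 0.112, 95% interval 0.40 to 0.88, edgeR adjusted p = 0.00704), and the call was lost without RPL24 KD library 1 (0.58, edgeR adjusted p = 0.0651). Its major arm miR-25-3p, which has the seed of miR-92a-3p, had 24089 ± 570 CPM after RPL24 KD and 23273 ± 980 CPM in NC (SD, n = 3 each), with a log2 fold change of 0.050 (edgeR adjusted p = 0.636). In the arm ratio, miR-25 had a log2 difference of 0.59 (standard error 0.0835, limma adjusted p = 0.00425). The 3p arm of miR-92b has the seed of miR-92a-3p and differs from it by 3 bases. In that hairpin log2(5p/3p) differed by -0.90 (standard error 0.326, limma adjusted p = 0.543), with overlapping groups. Its minor 5p arm thus pointed to a lower share after RPL24 KD. The minor arms miR-25-5p and miR-92a-1-5p also come from hairpins with related 3p arms and are set side by side because both were called. Both were higher after RPL24 KD, although their own seeds differ. Their sequences are
hsa-miR-25-5p: aGGCGGAGacuugggcaauug
hsa-miR-25-3p: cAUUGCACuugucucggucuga
with the seed in capitals. Of the 10 miRs listed from the MIR106A-363 cluster on chromosome X, 2 were tested and neither was DE.

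By seed, the members supplied most of the tested reads of each group. Of the 6 tested miRs with AAAGUGC, miR-17-5p and miR-20a-5p gave from 83.7% to 85.6% of the summed CPM, and miR-93-5p was the most abundant of the others (log2 fold change 0.052, edgeR adjusted p = 0.789). Of the 4 with AUUGCAC, miR-92a-3p gave from 79.9% to 82.0%. The seed GUGCAAA was carried among tested miRs by the miR-19 members alone, whose summed level was 3021 ± 94.9 CPM after RPL24 KD and 2637 ± 155 CPM in NC (SD, n = 3 each), and AAGGUGC by miR-18a-5p alone.

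Much of the spread of the members lay in the NC libraries. The coefficient of variation within RPL24 KD had a median of 3.87% over the 10 members, against 9.83% over all 360 tested miRs. Within NC it was 17.2% over the members and 12.3% over all tested miRs, and it was larger in NC than in RPL24 KD for 9 of the 10 members and for 217 of the 360 tested miRs. These medians were not matched for abundance. A mean of at least 100 counts was reached by 7 of the 10 members and by 166 of the 360 tested miRs. The unnumbered NC library stood above the mean of the other 2 NC libraries by 1.33-fold for miR-17-5p, 1.39-fold for miR-20a-5p, 1.57-fold for miR-17-3p, 1.32-fold for miR-92a-1-5p and 1.27-fold for miR-19b-3p. For miR-92a-3p the ratio was 1.0 and for miR-19a-3p 1.03. The median ratio was 1.30 over the members and 1.0 over all tested miRs, whose central 90% lay between 0.686 and 1.48. The 4 tested miRs outside the cluster with the seed AAAGUGC were also higher in this library, by 1.26-fold to 1.69-fold. The excess in that library was thus present in the miR-17 seed group and absent in miR-92a-3p and miR-19a-3p.

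**Figure D4:**
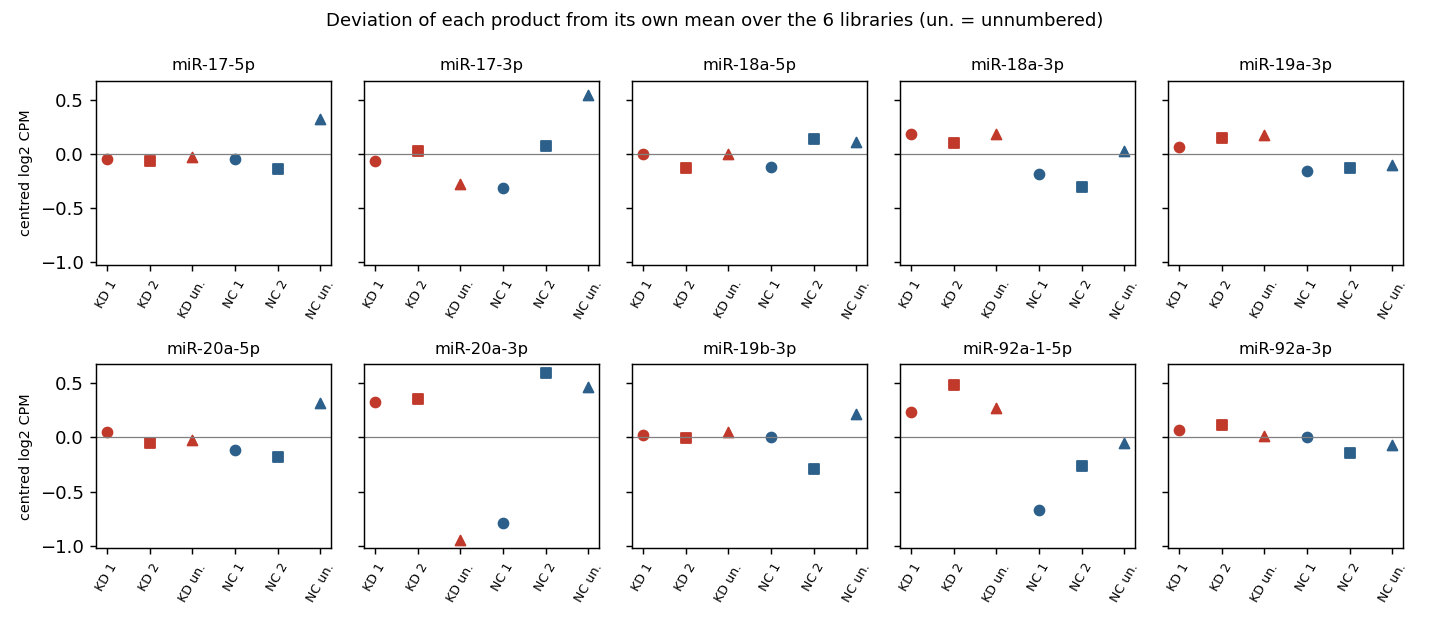
Log2 CPM of each member in each library minus the member's own mean over the 6 libraries, with RPL24 KD in red and NC in blue. The unnumbered NC library (last point of each panel) lies above the other 5 for miR-17-5p, miR-17-3p, miR-20a-5p and miR-19b-3p, and below the RPL24 KD libraries for miR-19a-3p, miR-92a-1-5p, miR-18a-3p and miR-92a-3p.

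The miRs whose pattern over the 6 libraries was most like the mean pattern of the members were found by the root mean square difference of centred log2 CPM among 159 other miRs whose mean count was 100 or more. The nearest was miR-361-5p, with a difference of 0.0412, followed by miR-16-5p with 0.0661 and miR-106b-5p with 0.0821. MiR-339-5p and miR-503-5p came next, with 0.0877 and 0.0889. The members' mean pattern was lowest in NC library 1, at -0.24, and highest in the unnumbered NC library, at 0.18. It gives equal weight to scarce and abundant members. Their values in NC library 1 ran from -0.79 for miR-20a-3p, with 8 counts there, and -0.67 for miR-92a-1-5p up to 0.0049 for miR-92a-3p. The low value of NC library 1, and with it the list of nearest miRs, thus leans on scarce members. None of the 5 nearest miRs was DE (edgeR adjusted p from 0.309 to 0.900).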

How the data were processed

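Small RNA libraries of HEK293T cells, 3 RPL24 KD and 3 NC, were used. The authors checked reads with FastQC, trimmed them with Flexbar, aligned them to miRBase with miRExpress and deposited raw counts per mature miR, with no normalization. Reads were not used here, and 0 columns of per-sample counts were left out. Groups came from the labels. The numbers of libraries 1 and 2 did not mark libraries that deviate together (correlation -0.019 over 360 miRs).

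Counts were tested by edgeR 4.0.16 (quasi-likelihood, TMM, filterByExpr with a minimum count of 10, Benjamini-Hochberg over the whole table) in R 4.3.3. Standard errors are those implied by the F statistic, and CPM are TMM-normalised. Arm ratios, log2((5p + 0.5)/(3p + 0.5)), were tested by limma 3.58.1 with a trend. Shares and ratios of members were compared by exact permutation tests. DESeq2 1.42.0, limma-voom, other scalings and filters, the replicate block and leaving out libraries were alternatives, and legacy and robust edgeR were added after seeing the data. The tests were run on simulated data with the same spread in both groups and with either no change or larger changes than those of the DE members. This does not show how they perform at the changes and the unequal spread seen here.

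Mature and hairpin sequences came from RefSeq (GRCh38.p14), which matched 2281 of 2588 names and all 10 members, and hosts from GENCODE 29. The members and lists were chosen with earlier results of these data known. Named were all members, the other products of their hairpins, DE miRs and the most abundant tested miR of each seed among paralogs, and the 5 miRs of nearest pattern. Paralogs given for their sequence alone were named for their closeness to a member.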

Additional observations from a re-analysis of the deposited data

How the results depend on the processing

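Of the members' log2 fold changes under all alternatives, 151 kept their direction and side of the threshold and 17 changed sign. With the sign kept, 12 lost the call and 3 gained it. MiR-20a-5p under the replicate block is counted among the sign changes, and it also became DE there. MiR-92a-1-5p was DE in 11 of 11 alternatives other than leaving out a library and in 3 of 6 of those (0.48 to 0.82), and miR-19a-3p in 9 of 13 and 1 of 6 (0.23 to 0.29). The number of DE miRs, 18, became 28 with total counts (10 higher, 18 lower), 31 with no filter and 34 with robust edgeR. Leaving out a library gave 0 to 36 (8 to 22 where neither RPL24 KD library 1 nor the unnumbered NC library was the one left out), with 0 without RPL24 KD library 1, where 56 miRs had an unadjusted p under 0.05 in edgeR. The number of DE members, 2, became 1 with total counts, with the numbered libraries alone and with legacy edgeR, where miR-19a-3p lost its call. It also became 1 under a mean count minimum of 100, where miR-92a-1-5p, with a mean of 98.5 counts, was not tested and miR-19a-3p stayed DE. On leaving out a library it was 0 to 3. The number of differing arm ratios, 1, became 0 with the numbered libraries and 0 to 1 on leaving out a library. It stayed 1 of 18 hairpins where both arms had a mean of at least 100 counts. There the -0.39 of miR-18a had a limma adjusted p of 0.051, which did not pass. The cause of these moves was not tested.

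The replicate block uses the 4 libraries whose numbers match the labels and leaves out the columns numbered 4, so few degrees of freedom remain. With it 57 of 360 miRs (15.8%) and 5 of 10 members were DE, and 4 of 84 arm ratios differed. Without the block the same libraries gave 27 DE miRs (7.5%), 1 DE member and 0 differing arm ratios. The members DE with the block were miR-92a-1-5p, miR-19a-3p, miR-92a-3p (0.15), miR-18a-3p (0.37) and miR-20a-5p (0.14, edgeR adjusted p = 0.0218), and the arm ratio of miR-92a-1 was 0.66 (limma adjusted p = 0.0341). The numbers are shared without a stated pairing. Under the block the sign changed for miR-17-5p (0.025), miR-17-3p (0.091) and miR-20a-3p (0.33), and for the arm ratios of miR-17 (-0.064) and miR-20a (-0.27). The numbered libraries without a block gave 0.023, 0.11, 0.14 for miR-20a-5p and 0.39, with the same arm ratios of -0.064 and -0.27.

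MiR-19b-3p was -0.027 with total counts and -0.014 under the mean count minimum of 100. On leaving out a library the log2 fold changes ranged from -0.19 to 0.032 for miR-17-5p, -0.44 to 0.049 for miR-17-3p, -0.12 to 0.13 for miR-20a-5p, -0.43 to 0.19 for miR-20a-3p and -0.088 to 0.12 for miR-19b-3p (up to 0.16 for miR-20a-3p and 0.039 for miR-19b-3p where the library left out was a numbered one), and the arm ratio of miR-20a ranged from -0.25 to 0.53, with -0.20 without NC library 2. Of the other named miRs, miR-106b-5p changed sign with the block (0.092), with the numbered libraries (0.089) and without the unnumbered NC library (0.084), and miR-93-5p ranged from -0.073 to 0.076 when a numbered library was left out. Depth limits miR-20a-3p, with 5 to 19 counts.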
